A study of Canis rufus and Canis latrans with 56 samples.

Results

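MARCHF2 (older symbol MARCH2) is 1 of 16121 named genes on the bead arrays hybridised here with canid blood RNA, and 1 of 24354 probes, GI_31543081-S, is annotated to it. The gene was chosen by its levels on these same arrays, which lie far apart among the red wolves. Its levels are therefore given as a description, with no test.

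The samples were whole blood of 13 red wolves (Canis rufus) and 1 coyote (Canis latrans). The design text counts 6 captive and 7 free-ranging wolves and calls the coyote free-ranging, but the labels used here give neither age nor sex, and record collection in the wild only for wolves 11136, 11310 and 111080 and the coyote. All blood went into RNAlater, which preserves RNA, and the RNA of each animal was amplified, labelled with biotin and hybridised to 4 arrays, each on a different one of 7 slides of 8 arrays. No treatment was given to any animal, so the comparisons run between individual animals. Since these 4 arrays carry the same RNA sample, they are technical repeats, and the animal is the unit of comparison.

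The probes were designed on human transcripts, and which canid transcript bound to them was not measured here. All values are on the log2 intensity scale with the array mean at 0, so that 1 unit is a 2-fold change of intensity. The level of an animal is the mean of its arrays after the differences between slides were removed. Background was bounded at 0.396, the mean level of HPX, the brightest of 38 measured genes specific to liver or skeletal muscle. In blood RNA, fewer cells of a type and less RNA per cell cannot be told apart.

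MARCHF2 belongs to the MARCH family of ubiquitin ligases, most of which are anchored in membranes and carry a RING-CH domain that recruits a ubiquitin-charged conjugating enzyme. The ligase then passes ubiquitin to membrane proteins nearby, which are sorted to lysosomes or taken to the proteasome. In human cells MARCHF2 resides in endosomes and the endoplasmic reticulum and acts on trafficking of membrane proteins. The viral relatives of the family remove immune receptors from the cell surface.

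MARCHF2 was far above background in 5 wolves and not above it in the other 8 wolves or the coyote. Wolf 10537 had the highest level, with 3.97, 3.87, 4.08 and 4.30 on its 4 arrays. Wolf 11275 had 2.70, 3.77, 3.77 and 3.45, and wolf 11273 had 2.32, 3.35, 3.82 and 3.12. The lowest array of each of the last pair was the one on slide 32011, where wolf 10537 also had its lowest value. Wolf 11274 had 2.997, 3.26, 2.90 and 2.85. Wolf 10632 had 2.09, 1.71, 2.74 and 1.69, the lowest values among these 5 wolves. Every one of these 20 arrays placed the MARCHF2 probe above at least 98.5% of all probes.

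The coyote had 0.35, 0.08, 0.26 and -0.02 and wolf 11105 had -0.25, 0.07, -0.10 and -0.15. Wolf 11206 had -0.44, -0.04, 0.14 and -0.30, and wolf 11136 had 0.15, -0.07, -0.02 and 0.00. These 4 animals lay around the array mean, where most probes of the array lie. In the coyote the probe stood above 64.1% to 92.9% of all probes, and in wolf 11206 above 6.96% to 81.8%. Wolf 10406 had 0.04, 0.03, 0.08 and -0.42, and wolf 11310 had 0.22, -0.07, -0.43 and -0.15. Wolf 11270 had 0.05, -0.58, -0.08 and -0.20. Wolf 11148 had -0.49, -0.35, -0.09 and -0.20 and wolf 111080 had -0.31, -0.54, -0.52 and -0.03. On these 36 arrays the probe stood above between 2.72% and 92.9% of all probes, so at background its place on an array was not fixed. The arrays of the 2 sets of animals did not overlap: the lowest of the 20 was 1.69 and the highest of the 36 was 0.354.

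**Figure D1:**
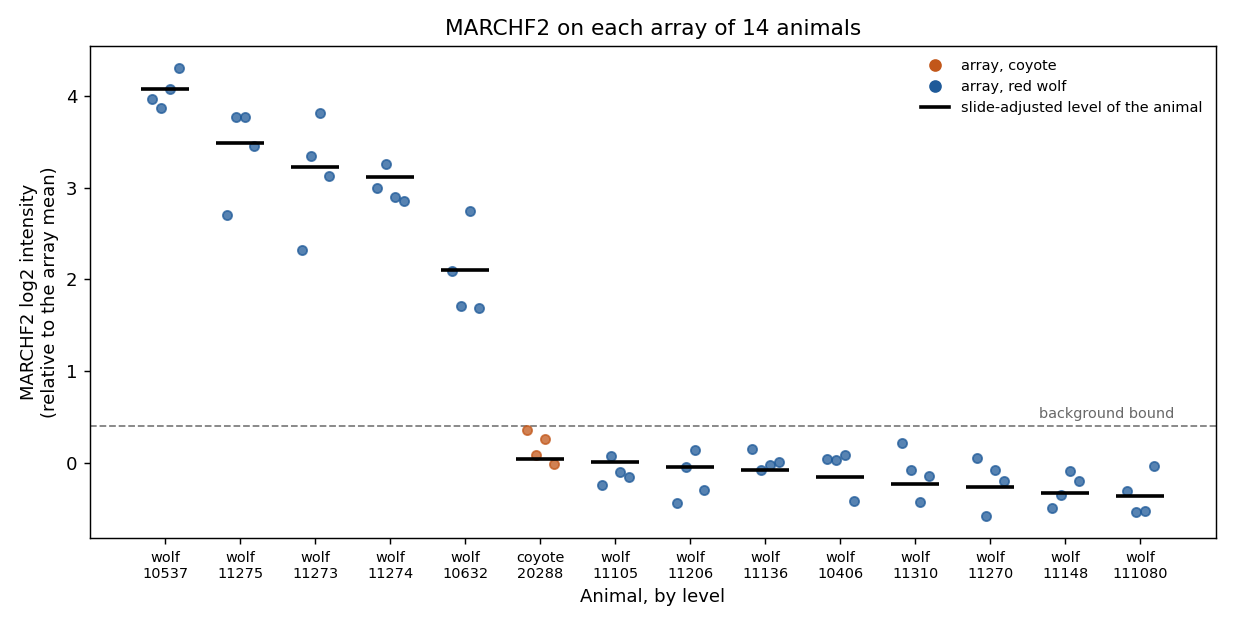
MARCHF2 log2 intensity (vertical axis, relative to the array mean) on each of the 56 arrays, by animal in order of level. Points are arrays as deposited, black bars the slide-adjusted level of each animal, and the dashed line the background bound of 0.396. In 5 wolves all arrays lie at 1.69 or higher, and in the coyote and the other 8 wolves none exceeds 0.354.

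The slide-adjusted levels of wolves 10537, 11275, 11273, 11274 and 10632, in this order, were 4.08 ± 0.24, 3.48 ± 0.25, 3.23 ± 0.38, 3.12 ± 0.23 and 2.10 ± 0.33 (SD over the 4 arrays of each). Wolf 10537 did not overlap with its neighbour, wolf 11275, in slide-adjusted arrays, nor wolf 10632 with wolf 11274. Wolves 11275, 11273 and 11274 overlapped in their arrays, and differences between these wolves were not tested. The coyote was at 0.04 ± 0.13 and the 8 other wolves between -0.37 and 0.01, each overlapping with its neighbours in the order. Between wolf 10632 and wolf 11105, the next wolf below it, lay a gap of 2.09, a 4.27-fold difference in intensity, against a spread of 0.38 among the 8 wolves below it. From the lowest wolf to the highest the probe spanned 21.8-fold. With the probe at background in the lower wolves, this is a fold of intensity, and the fold of transcript was not measured.

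On single slides, the highest and the lowest of the 5 wolves kept their places, while the 3 between them had no fixed order. Wolf 10632 was below the other wolf in all 10 same-slide pairs with another of the 5 wolves, by 0.61 to 2.16. Wolf 10537 was above the other wolf in all 7 such pairs, by 0.31 to 2.16. Each wolf has only 4 arrays, so these pairs reuse arrays and are not independent. The 3 between them changed order from slide to slide. Wolf 11275 minus wolf 11273 was 0.38, -0.05 and 0.33 on slides 32011, 32020 and 32024. Wolf 11275 minus wolf 11274 was -0.30 and 0.60 on slides 32011 and 32024. Wolf 11273 minus wolf 11274 was -0.68, 0.09 and 0.27 on slides 32011, 32013 and 32024. The gap was present on each of the 7 slides. The smallest, on slide 32010, ran from 2.09 in wolf 10632 down to 0.35 in the coyote, and the largest, on slide 32021, from 3.77 in wolf 11275 down to 0.08 in wolf 10406.

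MARCHF2 had a wider gap with several wolves on both sides than any other probe. Counting only gaps with at least 2 wolves on each side, the next probe was that of OGT, which adds N-acetylglucosamine to proteins, with a gap of 1.21 and 2 wolves above it. It was followed by GRAMD1A, a cholesterol transfer protein, at 1.00 with 6 wolves above. In all, 2 of 24354 probes had such a gap of at least 1. With a single wolf allowed to stand apart, 22 probes had one, and MARCHF2 ranked 7. MARCHF2 was chosen for its spread among these wolves, so its rank describes it and is no support for it.

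**Figure D2:**
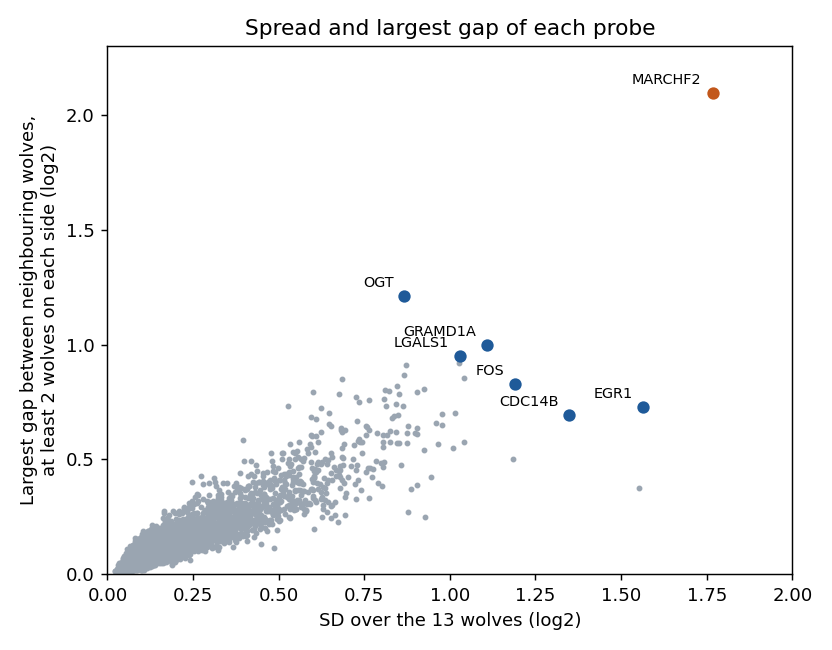
Each of the 24354 probes by its SD over the 13 wolves (horizontal axis, log2) and by its largest gap between neighbouring wolves with at least 2 wolves on each side (vertical axis, log2). MARCHF2 lies alone at an SD of 1.77 and a gap of 2.09, while EGR1 and CDC14B, with SDs of 1.56 and 1.35, have gaps of 0.73 and 0.69.

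Among the other measured MARCH genes only MARCHF7 could be judged, and it did not share the pattern. The arrays measured 8 of the 10 other family genes in the list, and 1 of them, MARCHF7, passed limma's moderated F test for differences among wolves, fitted with slide as a covariate. Over all probes 11.2% passed that test. Among probes with a mean level above the background bound 78.1% passed, and among the others 5.02%, and MARCHF7 is the only 1 of the 8 above the bound. MARCHF7, also called axotrophin, ranged from 0.07 in wolf 11273 over a median of 0.32 to 1.15 in wolf 11270 (SD 0.39, limma adjusted p = 2.14e-14). The 5 other wolves above the bound were 11206 at 1.12, 111080 at 1.04, 11105 at 0.89, 11310 at 0.82 and 10537 at 0.56. The bound is a mean over animals, and in single wolves C9 of liver reached 0.62 and RYR1 of muscle 0.58, so the level in wolf 10537 is not shown to be above background. The coyote stood at 0.89, and the other 7 wolves lay at 0.32 or lower. The other 4 wolves with MARCHF2 above background had MARCHF7 levels between 0.07 and 0.27.

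The 7 family genes that did not pass lay between -0.43 and 0.11 in all 14 animals, below the bound. They are MARCHF1, which removes class II antigen-presenting molecules and CD86 from immune cells, MARCHF3, the closest relative of MARCHF2, MARCHF4 and MARCHF9, which act on class I molecules in human cells, MARCHF5 of the mitochondrial outer membrane, MARCHF6 of the endoplasmic reticulum, and MARCHF10. Their SDs over wolves were between 0.05 and 0.13 and their adjusted p values between 0.244 and 0.991. MARCHF3 stood at -0.29 in wolf 10537, the highest for MARCHF2, and at -0.12 in wolf 111080, the lowest for it. A probe at background cannot show whether its gene varied.

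**Figure D3:**
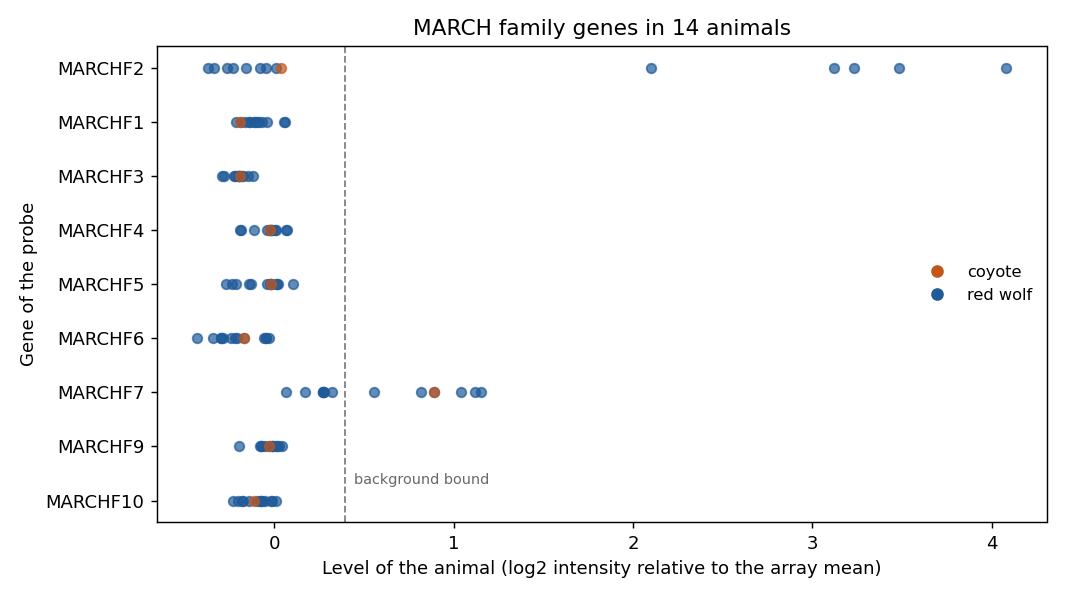
Slide-adjusted level (horizontal axis, log2 intensity relative to the array mean) of each measured MARCH gene in the 13 red wolves and the coyote, 1 point per animal, with the background bound dashed. Only MARCHF2 and MARCHF7 cross the bound of 0.396, MARCHF2 in 5 and MARCHF7 in 6 wolves and the coyote, and levels of different probes are not comparable as amounts.

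Proteins reported to bind MARCHF2 or to be its substrates, mostly in human cells, were followed as a list of 9 genes, 8 of them measured. ERGIC3, a cargo receptor between the endoplasmic reticulum and the Golgi, was the 1 member that differed among the wolves, which is 12.5% against 11.2% of all probes. Its levels were 1.75, 1.31, 0.71, 1.04 and 1.32 in the 5 wolves with MARCHF2 above background, from the highest MARCHF2 level to the lowest (limma adjusted p = 1.37e-21 over the 13 wolves). In the other 8 wolves it stood between 1.11 and 2.42, highest in wolf 111080, and in the coyote at 2.27. The 5 wolves with MARCHF2 above background overlapped with the others, since wolves 10406 and 11148 had 1.11 and 1.18. Both MARCHF7 and ERGIC3 passed in each of the 24 other settings tried, with adjusted p values up to 1.68e-08 and 6.83e-13.

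The other partners were near background and did not pass. They are STX6, a SNARE protein of endosomes, the scaffold DLG1, the chloride channel CFTR, GOPC, which sorts it in the Golgi, IKBKG, a regulator of NF-kappaB signalling, the transferrin receptor TFRC and the costimulatory receptor CD86. Their levels lay between -0.37 and 0.42 and their adjusted p values between 0.0776 and 0.807.

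None of the genes examined followed MARCHF2 at a comparable size. Likeness was measured with Pearson's r over the 13 wolves' levels, among 1718 named genes that differed among the wolves and exceeded the bound in at least 1 animal. Since the wolves fall into separate MARCHF2 levels and the genes were picked for their likeness, r serves only to rank genes and has no p value. KIF15, a kinesin motor of the mitotic spindle, came first with r = 0.86. It measured 1.11, 1.26, 1.19, 1.13 and 1.01 in wolves 10537, 11275, 11273, 11274 and 10632. The nearest of the other wolves was 11105 at 1.00, and the lowest was 11136 at 0.59. KIF15 therefore spanned 1.59-fold, against 21.8-fold for MARCHF2, and changed by 0.11 for each log2 unit of MARCHF2. Its SD over wolves, 0.221, was about that between arrays, 0.22.

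The 11 genes next to KIF15 had r between 0.76 and 0.83, and their names do not belong to a single cell type or pathway. They included IL16, a chemoattractant of CD4+ lymphocytes (r = 0.81), MYH9, the heavy chain of nonmuscle myosin (0.76), UNC45A, a myosin chaperone (0.82), and TSPAN32, a tetraspanin of blood cells (0.76). PPP1R1B, a phosphatase inhibitor studied in neurons (0.82), EDDM3A, an epididymal protein (0.83), and CTAG1A, a cancer-testis antigen (0.83), are known from other tissues. CTAG1A exceeded the bound only in the 5 wolves with MARCHF2 above background. It entered the 1718 genes through them, so its rank is no support for a shared pattern. The other 4 were ZNF655, a zinc finger protein (0.81), LRRC49 (0.79), FAM9B (0.79) and COXFA4L3 (0.76). LRRC49 had the steepest change of the 12, 0.12 per log2 unit of MARCHF2, with 1.34, 1.31, 1.47, 1.32 and 1.12 in these 5 wolves in that order. Wolf 11105 reached 1.24, above wolf 10632. The 12 genes had SDs between 0.14 and 0.28 over wolves. Their mean levels ran from 0.32 to 1.04, and 10 of the 12 were above the bound. CTAG1A at 0.32 and COXFA4L3 at 0.38 were not. In single wolves C9 of liver reached 0.62, so the dimmer of these genes are not shown to be above background in every wolf. Of these 12 genes 9, KIF15 among them with an adjusted p of up to 0.0704, no longer passed limma's F test in at least 1 of the 24 other settings.

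Of the 12, 10 had their lowest wolf in 11136, whose arrays had the narrowest signal range, with a mean 95th percentile of 0.381 against 0.568 to 0.866 in the other wolves. Without wolf 11136, r of the 12 genes lay between 0.73 and 0.86. Whether the range of the arrays had a part in these likenesses was not tested.

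Among the 1718 genes, those that ran opposite to MARCHF2 were led by DHRS7, a short-chain dehydrogenase, with r = -0.75. DHRS7 had levels of 2.29, 3.88, 2.19, 3.40 and 3.14 in wolves 10537, 11275, 11273, 11274 and 10632. The other 8 wolves ranged from 3.30 to 5.66. The 2 sets overlapped, since wolf 11148 had 3.30 and wolf 10406 had 3.80. The change was -0.44 per log2 unit of MARCHF2, the largest of either sign among the 1718 genes. ARHGAP15, which switches off the GTPase Rac, changed by -0.29 per unit (r = -0.71) and PRKAA1, a catalytic subunit of the energy sensor AMPK, by -0.18 (r = -0.70). The other 5 were ZBTB8OS, which acts in tRNA ligation, RAMAC, a partner of the mRNA cap methyltransferase, EMC7 of the membrane protein insertion complex, CRLS1, cardiolipin synthase, and LMNB1, a lamin of the nuclear envelope, with r between -0.73 and -0.68. ZBTB8OS, EMC7 and LMNB1 exceeded the bound only in the coyote and in wolves at background for MARCHF2. They entered the 1718 genes through those animals, so their ranks are no support for an opposite pattern. The mean levels of ZBTB8OS, 0.32, and LMNB1, 0.20, were not above the bound. Adjusted p values of these 8 genes in limma's F test were at most 3.3e-06.

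These 8 genes also followed the main axis of variation among the wolves. The first principal component of the 2064 probes with a mean level above the bound held 54.0% of the variance, and the 8 genes had r between 0.71 and 0.92 with it. MARCHF2 itself had r = -0.54 with that component, MARCHF7 0.95 and ERGIC3 0.95. The 12 leading genes had r between -0.64 and -0.37 with it. Wolf 10537, with the highest MARCHF2 level, lay at 1.83 on the component, near the middle of its range from -17.3 in wolf 11273 to 16.1 in wolf 11206. The component was negative in the 4 other wolves with MARCHF2 above background, but also in 3 wolves at background. Of these, wolves 10406 and 11148 lay at -11.3 and -9.03, beside wolves 11274 at -9.85 and 11275 at -9.58. The remaining wolves with MARCHF2 above background, 10632 and 11273, lay at -7.38 and -17.3. The part of the component in the likenesses was not tested.

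When likeness was measured by size as well as shape, the closest genes were CDS1, which makes CDP-diacylglycerol, FRMPD1, a FERM domain protein, TPGS1, a subunit of the tubulin polyglutamylase, RBX1, the RING subunit of cullin ubiquitin ligases, and VPS39, a tethering protein of late endosomes. The root mean square difference from the MARCHF2 profile was 1.43 for CDS1, against 1.70 for a gene that does not vary at all. TPGS1 had the largest positive change of the 1718 genes, 0.23 per log2 unit of MARCHF2. It stood at 4.93 in wolf 10537 and equally at 4.93 in wolf 11105, where MARCHF2 was at background. All 5 genes had their lowest level in wolf 11136. Of the 1718 genes, 16.1% had r of at least 0.5 and 13.6% r of -0.5 or lower, while none changed by 0.25 or more per unit and 19 changed by -0.25 or less.

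**Figure D4:**
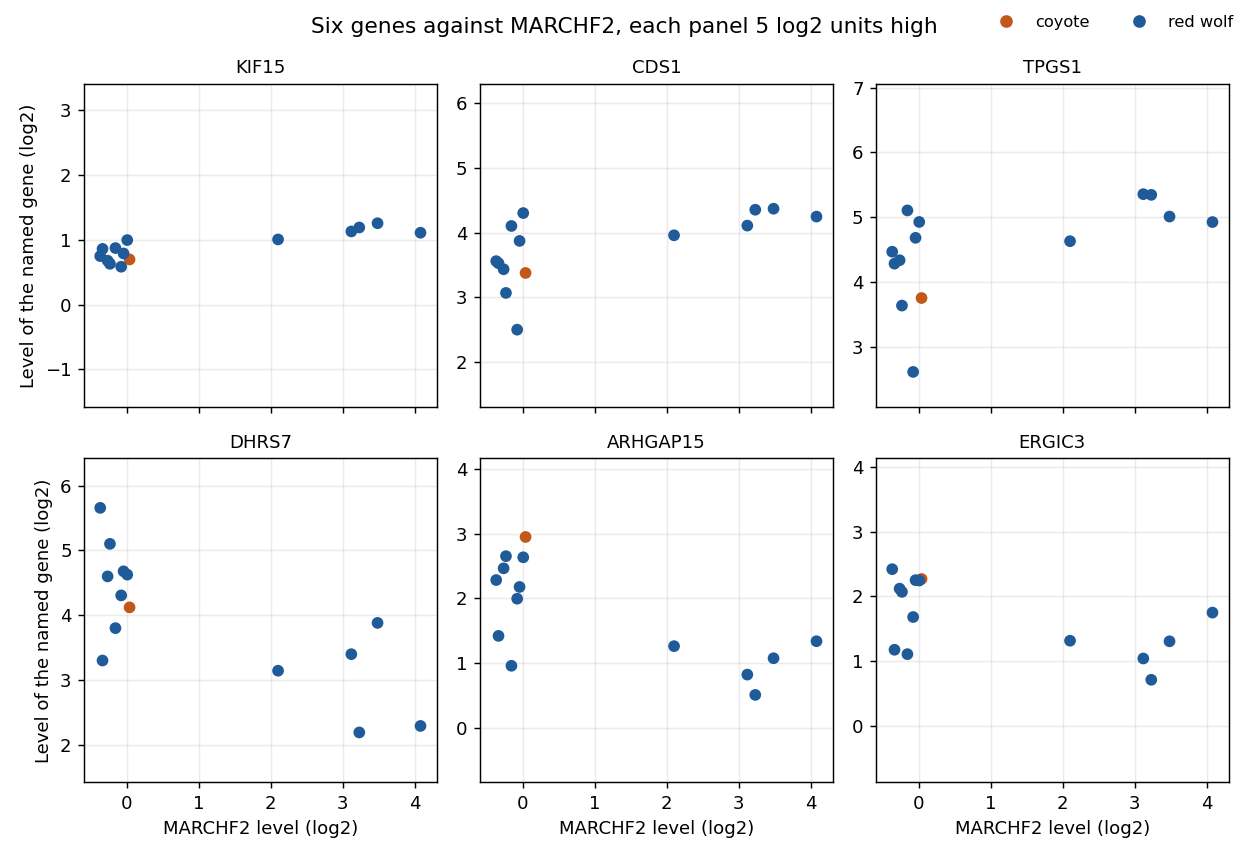
Level of 6 genes (vertical axes, log2, each panel 5 units high) against the MARCHF2 level (horizontal axis, log2) in the 13 red wolves and the coyote, 1 point per animal. KIF15 is nearly level, CDS1 and TPGS1 slope weakly upward with their lowest wolf, 11136, at background for MARCHF2, and DHRS7, ARHGAP15 and ERGIC3 slope downward with overlap between the wolves above and at background for MARCHF2.

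In the ubiquitin machinery around MARCHF2, 7 of 28 measured genes for ubiquitin and for activating and conjugating enzymes differed among the wolves, which is 25% against 11.2% of all probes. All 7 had a mean level above the bound, where 78.1% of probes differed and where the list had no other member. UBE2J2, a conjugating enzyme anchored in the endoplasmic reticulum, had r = 0.66 with MARCHF2. Its levels in those 5 wolves, again in that order, were 1.96, 2.02, 2.04, 1.88 and 1.73. In the other wolves it lay between 0.87 and 1.95, so the ranges overlapped. The ubiquitin gene UBB spanned 2.56-fold with r = 0.56. UBE2V1, a cofactor for lysine-63 chains, and UBA1, the main activating enzyme, had r of -0.37 and -0.49.

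Of 30 measured other membrane-bound RING ligases 3 differed, close to the share over all probes. RNF145, a sterol-responsive ligase of the endoplasmic reticulum, stood at 0.67 in wolf 10537 and at 2.05 in wolf 11105. It was lowest at 0.33 in wolf 10406, where MARCHF2 was also at background. ZNRF4 and RNF19A spanned 1.78- and 1.90-fold.

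Genes of endosomal trafficking differed in 9 of 33 members, which is 27.3% against 11.2% of all probes. These included all 5 members with a mean level above the bound, where 78.1% of probes differed. LAMP2, a glycoprotein of the lysosomal membrane, had levels of 1.02, 0.81, 0.47, 0.46 and 0.61 in wolves 10537, 11275, 11273, 11274 and 10632. Wolves 10406 and 11148 had 0.70 and 0.84, and the 6 remaining wolves ranged from 1.70 to 2.02. LAMP2 changed by -0.23 per log2 unit of MARCHF2 and had r = 0.89 with the first principal component. RAB11A, a GTPase of recycling endosomes, VPS29, a subunit of the retromer, and VTI1B, a SNARE of late endosomes, had r between -0.59 and -0.31 with MARCHF2. The median r over the 33 genes was -0.15, against 0.02 over all probes. Single members of the list ran from -0.82 to 0.67, and neither extreme passed the F test.

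Of the cell type markers followed here, none matched MARCHF2 in size. Red cell and reticulocyte genes differed among the wolves in 9 of 32 members, which is 28.1% against 11.2% of all probes. Above the bound 8 of 10 members differed, close to the 78.1% of all probes there. Their median r with MARCHF2 was 0.23. BNIP3L, a mitophagy receptor needed as reticulocytes mature, had levels of 3.01, 3.92, 3.76, 4.33 and 2.50 in wolves 10537, 11275, 11273, 11274 and 10632. Wolves 10406 and 11105, at background for MARCHF2, had BNIP3L levels of 4.16 and 4.05. The globin probe HBD had 5.90, 6.71, 6.85, 6.65 and 6.13 in the same order, against 5.41 to 6.73 in the other 8 wolves, with r = 0.38. The ranges overlapped for both genes.

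The members that differed were 2 of 21 for neutrophils, 2 of 14 for monocytes, 2 of 17 for T cells, 3 of 17 for NK and cytotoxic cells, 2 of 15 for B and plasma cells, 3 of 16 for platelets and 1 of 8 for eosinophils and basophils. These shares, from 9.52% to 18.8%, stand against 11.2% of all probes. The count for NK and cytotoxic cells was 0 without wolf 11136 and 1 without the first or the third array of each animal. That for eosinophils and basophils was 0 without wolf 11136, without the slide term, or without the second or the third array of each animal. The neutrophil count was 0 without the slide term or after quantile normalization. The median r of the 7 lists with MARCHF2 lay between 0.08 and 0.39, the highest in eosinophil and basophil genes. Single members of the lists ran from -0.64 to 0.78. The lowest was FCER1G, a signalling chain of Fc receptors in monocytes, which had 0.08, 0.18, -0.19, -0.03 and 0.09 in wolves 10537, 11275, 11273, 11274 and 10632. The other 8 wolves had 0.07 to 0.82 and the coyote 2.03 for FCER1G, so the wolves' ranges overlapped. Only 4 of the 13 wolves exceeded the bound for FCER1G, none of them with MARCHF2 above background. A probe at background cannot show whether its gene varied among the remaining wolves. The highest r was that of a neutrophil gene that did not pass the F test. The largest change per log2 unit of MARCHF2 in these 7 lists was 0.13, in the platelet chemokine gene PF4. Of these markers 10 had a mean level above the bound, so most cell types could be followed only through a few probes. Among them 1 of 1 differed for neutrophils, 1 of 2 for monocytes and 1 of 2 for T cells. The same counts were 2 of 2 for NK and cytotoxic cells, 1 of 1 for platelets and 1 of 2 for eosinophils and basophils. B and plasma cells had no such member, and 78.1% of all probes above the bound differed. The part of cell composition in the MARCHF2 levels was not tested.

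Immediate-early genes, the first wave of transcription after a stimulus, differed in 5 of 16 members and interferon genes in 4 of 24, which is 31.2% and 16.7% against 11.2% of all probes. Of the members with a mean level above the bound, 5 of 6 immediate-early genes and 4 of 4 interferon genes differed, against 78.1% of all probes there. The interferon count was 1 without the slide term and 2 without wolf 11136, without wolf 11270 or without any one array of each animal. EGR1 and FOS had r of -0.15 and -0.18 with MARCHF2. OAS2, an antiviral sensor, had the largest change per log2 unit of MARCHF2 in these 2 lists, -0.23. Liver and skeletal muscle genes, which set the bound, differed in 1 of 19 and 2 of 19.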

How the data were processed

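The deposited table holds log2 intensities of 24354 probes on 56 arrays. Per the labels' design text and the submitters' processing notes, the authors read intensities with BeadStudio 1.5.0.34, took log base 2 and centred each array on its median; in the deposited table the array mean is 0 instead and array medians run from -0.167 to -0.0325. Arrays were not scaled to equal spread (95th percentile 0.332 to 1.24). The sources used here do not give whether background was subtracted. GEO's platform annotation names 18339 probes with 1 symbol, 0 with several and 6015 with none.

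Animal and slide came from the labels. Levels came from a fit of animal and slide. Differences among the wolves were tested with limma 3.58.1 (R 4.3.3): a moderated F test of wolf terms beside slide terms, with an intensity trend and Benjamini-Hochberg adjustment at 0.05. It was tested on simulated data. A p value says whether animals differ by more than their technical arrays. The number of arrays limits the precision. No 2 arrays of an animal were identical (smallest SD of a difference 0.206).

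Genes named are the MARCH family, the 12 highest and 8 lowest r and the 5 smallest root mean square differences, and up to 4 members per list by SD among those past the test, each by its brightest probe. The partners that did not pass were named after their values were seen. The members and lists were chosen with earlier results of these data known. Chromosomal neighbours and sequences were not analysed here, since no gene positions or sequences were used.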

Additional observations from a re-analysis of the deposited data

Results flagged for a closer look

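In wolf 10406 the MARCHF2 probe stood at -0.418 on the array on slide 32022, against 0.0256, 0.0449 and 0.0848 on the other 3 arrays of this wolf. The array lay apart from the rest by more of the range of the 4 than a test for single outlying values allows. It was the only such array among 28 sets of 4 arrays (MARCHF2 and MARCHF7 in 14 animals), and chance marks about 1 in 20 sets. All 4 values lie below the background bound, so the wolf's place among the animals without MARCHF2 signal does not rest on this array.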

How the results depend on the processing

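In all 8 other settings tried on the MARCHF2 levels (no slide term, 75th-percentile centring, quantile normalization, equal spread, and each array of an animal left out), the same 5 animals lay above the bound. Wolf 10537 was the highest and wolf 10632 the lowest of the 5 in each, while wolves 11275, 11273 and 11274 changed places in 3. The largest gap ran from 1.91 to 2.27 and the SD over wolves from 1.72 to 1.81. The genes like MARCHF2 depended more on the processing. Of the 12 leading genes 6 stayed without the slide term, 6 after quantile normalization and 4 with Spearman's rho; of the 8 opposite genes 3 stayed after quantile normalization and 0 with Spearman's rho. With an array or a wolf left out, 3 to 11 of the 12 and 2 to 8 of the 8 stayed. Leaving out the third array of each animal kept 3 of the 12 and 7 of the 8, the first array 7 of the 12 and the second 3 of the 8. Without wolf 10537 or wolf 11148, 2 of the 8 stayed, and without wolf 10406 or wolf 11136, 5. The largest positive change per unit was 0.258 without the slide term, 0.259 after quantile normalization 0.215 to 0.265 with an array of each animal left out and 0.174 to 0.267 with a wolf left out, lowest without wolf 11136 and at 0.263 without wolf 10406. The most negative change lay between -0.525 and -0.391 with an array or a wolf left out, at -0.5001 without wolf 11148 and -0.392 without wolf 11273. The cause was not tested. The probes that differed among the wolves numbered 2732, between 1629 (without the third array of each animal, so fewer arrays) and 2396 with an array of each animal left out, up to 2770 with a wolf left out, and between 1979 and 2911 otherwise. List members that differed numbered 41 to 60, against 57 of 324 measured list genes in the main setting. Over all probes 11.2% differed in that setting. Calls were followed gene by gene for 34 genes: the other MARCH genes, ERGIC3, and those named by r or root mean square difference. Of these, 9 lost a call, all among the 12 leading genes. Other genes named from the lists were not among the 34, and counts by list also fell. That of eosinophil and basophil genes went from 1 to 0 without the slide term. The comparison of chromosomal neighbours was not run, as no gene positions were used here.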

Other observations

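The wolves with numbers 11273, 11274 and 11275 had MARCHF2 levels of 3.23, 3.12 and 3.48, which overlapped between their arrays, while wolf 11270 stood at -0.26. What the numbers stand for is not given in the labels used here. For wolves 11136, 11310 and 111080 and for the coyote, a label of a single array records that the blood was collected from the wild. Their MARCHF2 levels were -0.08, -0.23, -0.37 and 0.04, all at background. Status is not given for the other wolves, so no comparison was made.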
